A study of Homo sapiens with 8 samples.

Results

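Tropomyosins, tropomodulins and leiomodins, the proteins that coat actin filaments and bind their pointed ends, were followed as 10 listed genes out of the 58302 genes counted in each library. The genes were TPM1, TPM2, TPM3 and TPM4 for the tropomyosins, TMOD1, TMOD2 and TMOD3 for the tropomodulins, and LMOD1, LMOD2 and LMOD3 for the leiomodins. They were listed by name, with earlier results of these data known. RNA was sequenced from RD cells, an established line from a human rhabdomyosarcoma, a tumour with features of embryonic skeletal muscle. In 4 libraries the cells carried a short hairpin RNA against PROX1, a homeobox transcription factor (shPROX1), and in the other 4 a scrambled hairpin (control). All 8 came from the same line grown in the same medium. The series describes 4 biological replicates per group without saying whether they were separate transductions. The p-values therefore set group differences against the spread between these libraries, and whether they hold for new transductions is unknown.

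Tropomyosin is a coiled-coil dimer that lies end to end along the actin filament and sets which other proteins, including myosin and the severing protein cofilin, can reach it. Each of the 4 tropomyosin genes gives several proteins by alternative promoters and splicing. Some are long sarcomeric forms, which work with troponin in striated muscle, and others are cytoskeletal forms found in most cells. Tropomodulins cap the pointed end of the filament and bind the end of tropomyosin, whereas the related leiomodins start new filaments and let pointed ends grow.

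The 4 tropomyosin genes are similar in sequence and could share reads, so the long coding forms of GENCODE 29 were compared. The long form of TPM3 has 285 codons and those of TPM1, TPM2 and TPM4 have 284, and the extra first codon of TPM3 was left out. Over all 852 aligned coding bases, TPM3 was 74.5% identical to TPM4, 75.35% to TPM2 and 71.95% to TPM1, and the longest identical run between TPM3 and another of the 4 was 29 bases, with TPM4. No 50-base window of any of the 10 genes' transcripts occurred in the transcripts of another of the 10, so reads of that length that match exactly can be told apart between them, although the counts cannot separate the several transcripts of 1 gene.

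Libraries held 3747090 to 4865161 counts. At this depth 3 counts, about the 95% upper limit for a count of 0, correspond to 0.617 to 0.801 CPM (counts divided by the library total and scaled to 1000000). PROX1 had 33, 42, 34 and 35 counts in shPROX1 libraries and 85, 66, 69 and 105 in controls. Its level averaged 8.79 ± 1.15 CPM in shPROX1 and 18.6 ± 2.58 CPM in control libraries (SD, n = 4 each), a fitted level of 47.6% of control (p = 0.0286 in an exact permutation test, two-sided, where 70 arrangements of the labels allow no smaller value). The series design gives the silencing as 75%, more than these counts show, and does not say how it was measured. Of 7 skeletal muscle lineage markers, the summed level was 1137 to 1232 CPM in shPROX1 and 1357 to 1393 CPM in control libraries, with MYF5 at 0 in all 8. Of the 6 that could be tested, MYOG, DES, CDH15 and PAX7 fell, and MYOD1 and CHRNA1 were not called. Over all tested genes 17.9% were called lower. The log2 changes were -1.32 for MYOG, -0.45 for CDH15, -0.41 for PAX7 and -0.18 for DES. Markers of other cells were scarce, with sums of at most 0.931 CPM in shPROX1 and 1.65 CPM in control libraries for endothelium, epithelium and blood, and CDH5, KRT5, HBB and CD3E at 0. The 4 cardiac markers summed to 11.85 to 17.1 CPM in shPROX1 and 11.85 to 16.5 CPM in control libraries, nearly all from NKX2-5, with NPPA at 0. Control libraries differed more among themselves than shPROX1 libraries did: the chi-square per degree of freedom of library pairs was 1.19 to 2.16 within shPROX1 and 2.39 to 6.34 within control, the last between control replicates 1 and 4.

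Of the 7 genes with enough counts for a test, TPM3 fell in shPROX1 cells and none was called higher. TMOD1, LMOD1 and LMOD2 did not pass the filter on low counts. For the 7 that did, edgeR's quasi-likelihood test with Benjamini-Hochberg adjustment over 12392 genes left 6 uncalled at an adjusted p of 0.05. The 1 called gene made 14.3% of those tested, against 35.2% of all tested genes called in either direction. In the lower direction the background was 17.9% of all tested genes, and in the higher direction, where 0 of the 7 were called, it was 17.3%. At an unadjusted p under 0.05 there was likewise 1 lower and 0 higher, and DESeq2 and limma voom also called 1 lower and 0 higher. The median log2 change of the 7 was 0.08, beside -0.01 over all tested genes, and the 6 uncalled genes lay between -0.12 and 0.24.

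**Figure D1:**
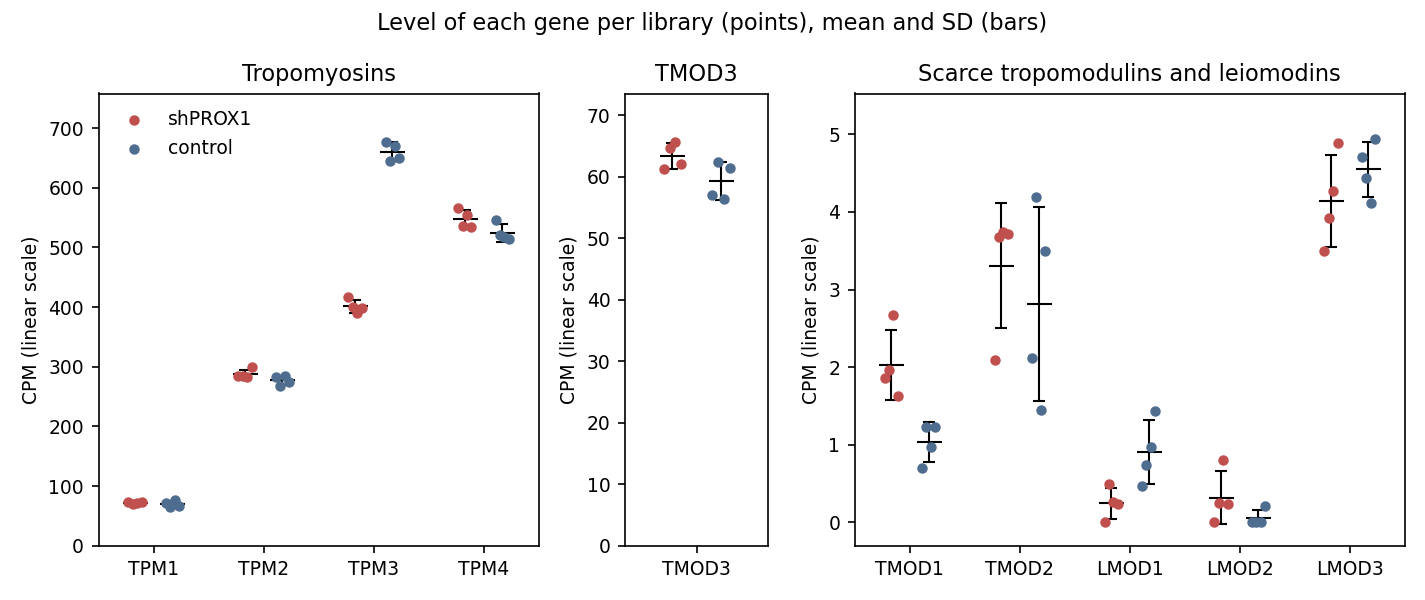
Level of each of the 10 genes in CPM on a linear scale, with 1 point per library (shPROX1 in red, control in blue) and bars for the mean and SD over 4 libraries. TPM3 is at 390.2 to 416.2 CPM in shPROX1 and 645.1 to 676.7 CPM in control libraries, while the points of TPM1, TPM2, TPM4 and TMOD3 overlap between the groups.

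TPM3 (ENSG00000143549, chr1:154155304-154194648, minus strand) encodes the slow skeletal tropomyosin of slow muscle fibres and, from other promoters, short cytoskeletal forms. It had 416.2, 400.3, 390.2 and 399.1 CPM in shPROX1 libraries and 676.7, 645.1, 670.5 and 649.7 CPM in control libraries. The highest shPROX1 library was far below the lowest control library, and TPM3 was the 1 gene of the 7 tested whose groups did not overlap, beside 32.3% of all tested genes. The log2 change was -0.69 ± 0.04 (SE), a level of 61.8% of control or a 1.62-fold fall, with an adjusted p of 1.06e-11 and a 95% interval of -0.78 to -0.61. Among all tested genes 534, or 4.31%, fell by at least as much. These values rest on 1462 to 1788 counts in shPROX1 and 2616 to 3161 counts in control libraries. In RNA of whole cultures, fewer cells with TPM3 transcripts and less TPM3 RNA per cell cannot be told apart. GENCODE 29 lists 12 coding transcripts of TPM3, whose annotated models begin at 12 different positions. Whether each position is a promoter was not examined. Which of the transcripts carried the fall was not analysed here.

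TPM4 (ENSG00000167460, chr19:16067021-16103005, plus strand), which encodes a cytoskeletal tropomyosin of stress fibres, had 565.4, 535.4, 553.8 and 533.9 CPM in shPROX1 and 545.7, 520.8, 517.1 and 513.2 CPM in control libraries. These ranges overlapped, and the log2 change was 0.08 ± 0.04 with a 95% interval of -0.00 to 0.17 and an adjusted p of 0.129. The call turned on 1 library: without control replicate 1, the highest control, the log2 change was 0.11 with an adjusted p of 0.0480.

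TPM2 (ENSG00000198467, chr9:35681992-35691020 in the deposited files, minus strand), which encodes beta-tropomyosin of skeletal and smooth muscle, had 284.7, 284.3, 283.4 and 298.7 CPM in shPROX1 and 282.4, 267.8, 284.2 and 274.4 CPM in control libraries. Its groups overlapped, with a log2 change of 0.08 ± 0.05, an interval of -0.02 to 0.17 and an adjusted p of 0.213. TPM1 (ENSG00000140416, chr15:63042632-63071915, plus strand), which encodes alpha-tropomyosin of heart and fast skeletal muscle as well as cytoskeletal forms, had 73.8, 69.25, 72.1 and 73.9 CPM in shPROX1 and 71.6, 64.4, 76.7 and 65.8 CPM in control libraries. Its control libraries spanned all of its shPROX1 libraries, and its log2 change was 0.08 ± 0.07 with an interval of -0.06 to 0.22 and an adjusted p of 0.392. Over TPM1, TPM2 and TPM4 the intervals ran from -0.06 to 0.22, all above that of TPM3.

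**Figure D2:**
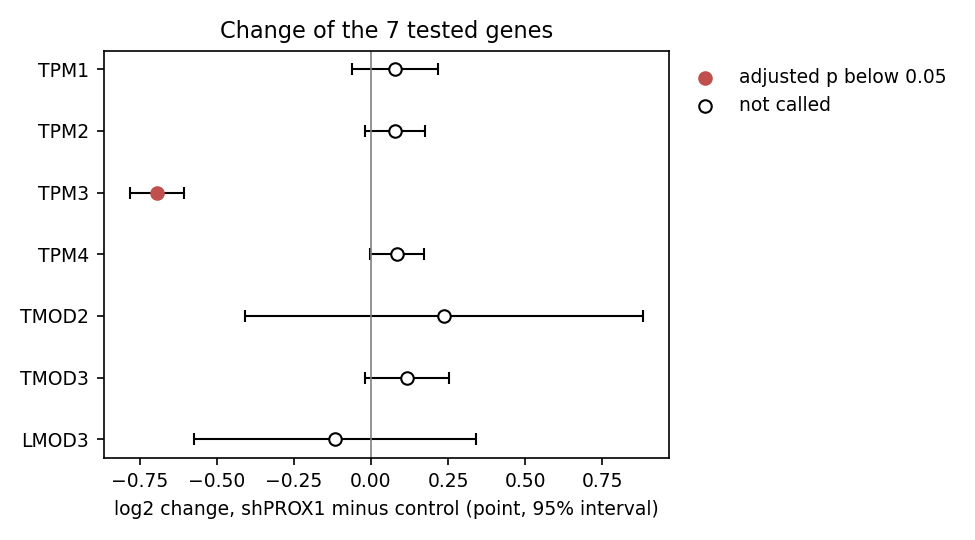
Log2 change, shPROX1 minus control, of the 7 tested genes, with points for the fitted change and bars for its 95% interval from edgeR (filled where the adjusted p was below 0.05). TPM3, at -0.69, is the 1 filled point, and the intervals of the other 6 genes include 0, widely for TMOD2 (-0.41 to 0.88) and LMOD3 (-0.57 to 0.34), which have few counts.

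That TPM3 differed in its response from the other 3 tropomyosins was tested within each library, so that library scaling cancels. The mean log2 ratio of TPM3 to TPM4 counts was -0.45 ± 0.04 in shPROX1 and 0.33 ± 0.03 in control libraries (SD, n = 4 each), so TPM4 had the more counts in shPROX1 libraries and TPM3 in controls. The ratio of TPM3 to TPM2 was 0.48 ± 0.05 in shPROX1 and 1.25 ± 0.01 in control libraries. That of TPM3 to TPM1 was 2.47 ± 0.05 in shPROX1 and 3.25 ± 0.09 in control libraries. All 3 ratios were lower in every shPROX1 library than in every control library, by 0.78, 0.77 and 0.78 on the log2 scale for TPM4, TPM2 and TPM1 (exact two-sided permutation p = 0.0286 for each of the 3, and 0.0286 after Benjamini-Hochberg adjustment over them). These ratios share the TPM3 counts, were chosen after the values were seen, and stand at the smallest p the design allows. Their p-values therefore describe a separation already seen and are no independent support.

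As shares of the summed tropomyosin counts, TPM3 made 31.1%, 31.05%, 30.0% and 30.6% in shPROX1 libraries and 42.9%, 43.1%, 43.3% and 43.2% in control libraries. TPM4 held the largest share of counts in shPROX1 libraries, 41.8% ± 0.757, against 34.2% ± 0.617 in controls (SD, n = 4 each). TPM2 made 22.0% ± 0.678 in shPROX1 and 18.1% ± 0.240 in control libraries, and TPM1 made 5.52% ± 0.120 in shPROX1 and 4.54% ± 0.292 in control libraries. The shares sum to 100%, so that a lower TPM3 share raises the other 3 whatever their own levels do. The 4 genes together summed to 1309 ± 22.0 CPM in shPROX1 and 1532 ± 37.6 CPM in control libraries. Without TPM3 the sum was 907 ± 14.3 CPM in shPROX1 and 871 ± 22.4 CPM in control libraries. Dividing counts by exon length gave TPM3 23.3% ± 0.453 of the tropomyosin signal in shPROX1 and 34.2% ± 0.0583 in control libraries. On this scale TPM2, not TPM4, held the largest share, 43.1% ± 0.977 in shPROX1 and 37.1% ± 0.395 in control libraries. TPM4 made 30.85% ± 0.776 in shPROX1 and 26.4% ± 0.536 in control libraries. All shares on this scale use the GENCODE exon length of TPM2, although the deposited files give that gene a longer span. Whether the longer span adds exon bases that were counted was not examined, so the order of shares holds for the GENCODE length only.

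**Figure D3:**
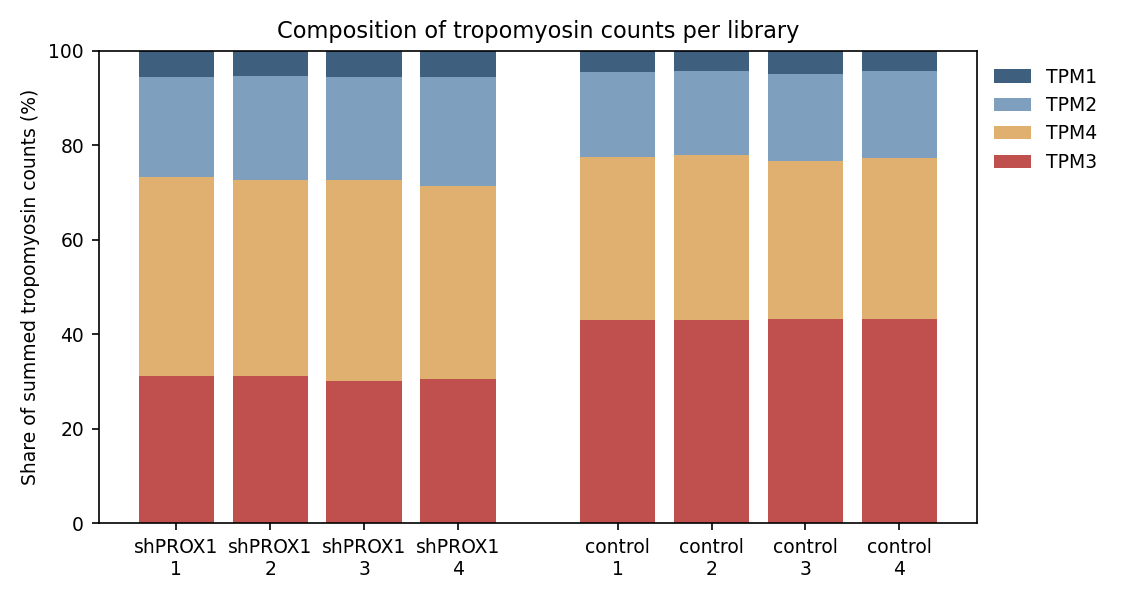
Share of each tropomyosin gene in the summed TPM1, TPM2, TPM3 and TPM4 counts of a library, in percent, with 1 stacked bar per library (shPROX1 left, control right). The TPM3 part at the foot of the bars is 30.0% to 31.1% in shPROX1 libraries and 42.9% to 43.3% in control libraries.

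Processed pseudogenes are copies of spliced RNA and could take reads from TPM3. Of its 8935 windows of 50 bases, 290 (3.25%) occurred on the same strand in other genes, 193 of them in TPM3P5, which had 2 counts over all 8 libraries. TPM3P9, a transcribed pseudogene on chromosome 19 that shares 1 window with TPM3, had 75, 71, 57 and 68 counts in shPROX1 and 54, 43, 60 and 80 in control libraries. Its log2 change was 0.29 ± 0.14 with an adjusted p of 0.105, and its counts overlapped between the groups. The 12 genes besides TPM3P9 that are named as tropomyosin pseudogenes, TPM3P5 among them, had at most 2 counts in any library. TPM3 and TPM2 shared no exon base with another gene. TPM1 shared 21.4% of its exon bases with antisense genes that had 0 counts in all libraries. TPM4 had 501 of 9065 windows in the pseudogene AC098614.1, which had 12, 7, 8 and 3 counts in shPROX1 and 13, 4, 6 and 12 in control libraries. Whether reads that match or overlap more than 1 gene were counted was not examined. Low or 0 counts of these genes therefore do not show that TPM3, TPM1 or TPM4 lost no reads.

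Among the tropomodulins, TMOD3 (ENSG00000138594, chr15:51829628-51947295, plus strand), the form found in most cells, made 92.3% ± 1.19 of the tropomodulin counts in shPROX1 and 94.0% ± 1.87 in control libraries. It had 61.2, 64.6, 65.65 and 62.1 CPM in shPROX1 and 57.0, 62.4, 56.4 and 61.5 CPM in control libraries. The ranges overlapped, and the log2 change was 0.12 ± 0.07 with an interval of -0.02 to 0.25 and an adjusted p of 0.174. TMOD2 (ENSG00000128872, chr15:51751561-51816368, plus strand), its neighbour on the chromosome and the form known from neurons, had 9, 15, 14 and 16 counts in shPROX1 and 9, 17, 6 and 17 counts in control libraries. Its log2 change of 0.24 ± 0.31 had an interval of -0.41 to 0.88 and an adjusted p of 0.597, which leaves changes of either sign possible at this depth.

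TMOD1 (ENSG00000136842, chr9:97501180-97601748, plus strand), the capping protein of erythrocytes and striated muscle, had 8, 8, 10 and 7 counts in shPROX1 and 3, 5, 4 and 6 in control libraries. As CPM these were 1.86, 1.96, 2.67 and 1.63 CPM in shPROX1 and 0.707, 1.23, 0.968 and 1.23 CPM in control libraries, so every shPROX1 library was above every control library. The gene did not pass the filter and has no call. With a filter of at least 1 CPM in 4 libraries its log2 change was 0.96 ± 0.38 with an adjusted p of 0.0554, and with no filter 0.96 ± 0.44 with an adjusted p of 0.158. TMOD1 shares 45.0% of its exon bases with TSTD2 on the opposite strand. TSTD2 had 169, 139, 144 and 156 counts in shPROX1 and 178, 165, 169 and 253 in control libraries, and the sources used here do not give the strand setting of the counting, so its part in the TMOD1 counts was not tested.

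The leiomodins were scarce, with 15 to 32 counts for the 3 genes together in a library. LMOD3 (ENSG00000163380, chr3:69106872-69123032, minus strand), the form known from skeletal muscle, held most of them and had 15, 16, 16 and 21 counts in shPROX1 and 20, 18, 17 and 24 in control libraries. As CPM, the groups overlapped at 4.14 ± 0.588 CPM in shPROX1 and 4.55 ± 0.354 CPM in control libraries, and the log2 change was -0.12 ± 0.22 with an interval of -0.57 to 0.34 and an adjusted p of 0.737. LMOD1 (ENSG00000163431, chr1:201896452-201946588, minus strand), the smooth muscle form, had 0, 2, 1 and 1 counts in shPROX1 and 2, 3, 4 and 7 counts in control libraries. LMOD2 (ENSG00000170807, chr7:123655807-123664290, plus strand), known from the heart, had 0, 1, 3 and 1 counts in shPROX1 and 0, 0, 0 and 1 in control libraries. Both overlapped between the groups and were too low to test. Without the filter the log2 change was -1.77 ± 0.76 for LMOD1 (adjusted p = 0.115) and 1.97 ± 1.26 for LMOD2 (adjusted p = 0.411).

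Levels of different genes were compared as CPM per kilobase of exons. TPM2 was the highest at 88.6 ± 2.25 in shPROX1 and 85.35 ± 2.33 in control libraries (CPM per kilobase, SD, n = 4 each). Its exon length of 3248 bases came from GENCODE, which ends the gene at 35690121, against 35691020 in the deposited files. No other listed gene differed in this way. Whether the longer form adds exon bases that were counted was not examined. The rank of TPM2 is therefore given for GENCODE lengths only. TPM4 came next in shPROX1 libraries, at 63.4 ± 1.75 there and 60.7 ± 1.70 in controls. TPM3 followed TPM4 in shPROX1 libraries and preceded it in controls, at 47.85 ± 1.29 in shPROX1 and 78.7 ± 1.84 CPM per kilobase in control libraries, so the order of the pair differed between the groups. Much lower followed TMOD3 with 5.96 ± 0.196 in shPROX1 and 5.58 ± 0.288 in control libraries, and TPM1 with 5.61 ± 0.169 in shPROX1 and 5.41 ± 0.440 in control libraries. In shPROX1 libraries TMOD3 (5.76 to 6.18) lay just above TPM1 (5.38 to 5.74) without overlap, while in controls the pair overlapped and did not differ beyond their spread. LMOD3 had 0.968 ± 0.138 in shPROX1 and 1.06 ± 0.0829 CPM per kilobase in control libraries. TMOD1 (0.547 ± 0.121 in shPROX1 and 0.279 ± 0.0680 in control libraries) and TMOD2 (0.284 ± 0.0694 in shPROX1 and 0.242 ± 0.108 in control libraries) overlapped each other and LMOD1 in controls. LMOD1 and LMOD2 were at the lower end in both groups. The choice of length matters: per kilobase of the longest coding transcript, TPM3 was above TPM2 in control libraries (209.7 ± 4.91 against 199.1 ± 5.45 CPM per kilobase), and TPM1 was above TMOD3 in both groups.

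The genes that work beside tropomyosin were read in the same fit from 3 lists, chosen with earlier results of these data known. Of 21 striated thin filament genes, 13 were tested, of which 7 fell, 2 rose and 4 were not called, beside 17.9% of all tested genes called lower and 17.3% called higher. The median log2 change was -0.30, beside -0.01 over all tested genes. The troponins, whose proteins make tropomyosin respond to calcium, did not all move one way: TNNI1, TNNC1, TNNC2 and TNNT1 fell and TNNT2 rose. TNNT1 and the 2 genes that rose were named after their values were seen. Those 2 were TNNT2, the troponin T of heart and embryonic muscle, and CFL2, the muscle cofilin. TNNT2 averaged 170.6 CPM in shPROX1 and 124.2 CPM in control libraries (log2 change 0.48 ± 0.06, adjusted p = 1.45e-06), and CFL2 had a log2 change of 0.31 ± 0.06 (adjusted p = 1.40e-04). TNNI1, the inhibitory troponin of slow fibres, averaged 73.4 CPM in shPROX1 and 148.6 CPM in control libraries, with a log2 change of -0.996 ± 0.06 and an adjusted p of 4.09e-12. TNNC1, the troponin C of slow fibres and heart, fell by 0.75 ± 0.18 on the log2 scale (adjusted p = 0.00192), and TNNC2, that of fast fibres, fell by 0.63 ± 0.12 (adjusted p = 2.80e-04). KLHL40, a muscle protein that stabilises leiomodin 3 and nebulin, averaged 2.20 CPM in shPROX1 and 4.07 CPM in control libraries and fell by 0.83 ± 0.31 (adjusted p = 0.0425). Its libraries overlapped, at 1.07 to 3.95 CPM in shPROX1 and 3.45 to 4.93 CPM in control libraries, and DESeq2, which called 6 genes of the list lower, did not call it (adjusted p = 0.105). Nebulin (NEB), the giant protein that runs along the thin filament, was not called at 97.6 CPM in shPROX1 and 118.6 CPM in control libraries (log2 change -0.26 ± 0.12, adjusted p = 0.0804). TMOD4, the skeletal muscle tropomodulin, had 0 counts in all 8 libraries, but it shares nearly all of its exon bases with VPS72 on the same strand, so the 0 says nothing of its level.

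Of 17 genes for actin filament ends and turnover in all cells, all were tested, and 10 rose, 2 fell and 5 were not called (17.3% of all tested genes were called higher and 17.9% lower), with a median log2 change of 0.19. WDR1, the cofilin partner in filament disassembly, averaged 184.6 CPM in shPROX1 and 138.1 CPM in control libraries (log2 change 0.44 ± 0.06, adjusted p = 1.91e-06). TMSB10, which binds actin monomers, averaged 1064 CPM in shPROX1 and 846.9 CPM in control libraries (log2 change 0.35 ± 0.05, adjusted p = 4.19e-06). The 2 that fell were TWF1, a monomer-binding protein, at -0.55 ± 0.06 (adjusted p = 1.23e-07), and the severing protein gelsolin (GSN), at -0.33 ± 0.06 (adjusted p = 9.29e-05). Profilin (PFN1), the most abundant that was not called, averaged 418 CPM in shPROX1 and 391.5 CPM in control libraries (log2 change 0.12 ± 0.05, adjusted p = 0.0818).

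Of 13 smooth muscle contractile genes and genes of serum response factor (SRF) signalling, 9 were tested, and 6 rose, 0 fell and 3 were not called (again beside 17.3% higher and 17.9% lower over all tested genes), with a median log2 change of 0.38. At an unadjusted p under 0.05 also 0 were lower, and DESeq2 and limma voom each called 6 higher and 0 lower. Transgelin (TAGLN), an actin-bundling protein, averaged 15.98 CPM in shPROX1 and 6.96 CPM in control libraries (log2 change 1.24 ± 0.17, adjusted p = 4.96e-06). MYL9, a regulatory myosin light chain, had a log2 change of 0.83 ± 0.15 (adjusted p = 2.14e-04). SRF itself averaged 65.2 CPM in shPROX1 and 44.8 CPM in control libraries (log2 change 0.57 ± 0.08, adjusted p = 4.41e-06), and calponin CNN2 had a log2 change of 0.40 ± 0.05 (adjusted p = 2.77e-06). The SRF cofactor MRTFA was not called (0.11 ± 0.11, adjusted p = 0.468). The 5 smooth muscle markers summed to 449.5 to 498.8 CPM in shPROX1 and 531.9 to 569.8 CPM in control libraries, mostly from desmin (DES), which skeletal muscle also makes. Of the other 4 markers, CNN1 had 48 counts over the shPROX1 and 41 over the control libraries and was not called, MYOCD was at 0 in all libraries, MYH11 had 4 counts over the shPROX1 and 1 over the control libraries, and ACTG2 had 0 over the shPROX1 and 2 over the control libraries.

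**Figure D4:**
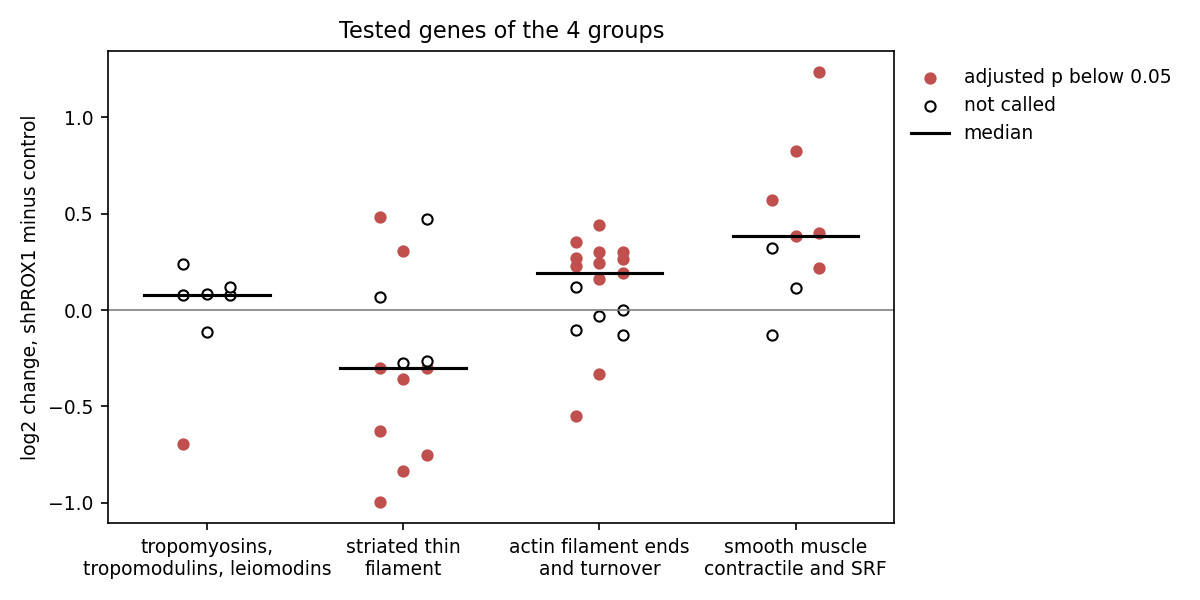
Log2 change, shPROX1 minus control, of each tested gene in the 4 groups of genes, with filled points for an adjusted p below 0.05 (edgeR), open points for genes not called and a line at each group's median. The medians are 0.08 for tropomyosins, tropomodulins and leiomodins, -0.30 for the striated thin filament, 0.19 for filament ends and turnover, and 0.38 for smooth muscle and SRF genes.

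The genes whose pattern over the 8 libraries lay closest to that of TPM3 were taken from 10528 protein-coding genes of at least 5 CPM. Closeness was the Euclidean distance of log2 CPM centred per gene, here with library totals scaled by the normalization of the fit. UBE2Q1, a ubiquitin-conjugating enzyme, was nearest at a distance of 0.119, with 59.7 CPM in shPROX1 and 98.4 CPM in control libraries. MYL1, an essential light chain of fast skeletal myosin, followed at 0.129 with 82.4 CPM in shPROX1 and 141.9 CPM in control libraries. PFAS, an enzyme of purine synthesis, was at 0.135 with 125.4 CPM in shPROX1 and 194.9 CPM in control libraries. The median distance over all compared genes was 1.05. These genes were chosen for their likeness, so that their falls are a description.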

How the data were processed

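Total RNA of 8 RD cell libraries was made into libraries with a kit that keeps strand, per the labels' protocols. Each deposited file gives 1 library's raw gene counts, which the authors had not normalized. The submitters' processing notes list the tools HISAT2, HTSeq, DESeq2 and FastQC, with GRCh38 as the build; tool versions, annotation release and strand setting are not given in the sources used here. Identifiers were matched to GENCODE 29 (58039 of 58302), which gave symbols, exons and transcripts; coordinates are 1-based.

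After a trial on simulated data, the quasi-likelihood F test of edgeR 4.0.16 (R 4.3.3) was run on the counts with group as its term, TMM normalization and filterByExpr for low genes. P-values were adjusted by Benjamini-Hochberg over the 12392 tested genes, with a threshold of 0.05. Intervals are 95% t intervals of the fit. DESeq2 1.42.0, limma 3.58.1 voom, other normalizations, filters and thresholds, a replicate block and each library left out were alternatives. No 2 libraries of a group agreed within sampling noise. Pattern distances were taken on log2 CPM with TMM-scaled library totals (prior count 2), unlike the CPM printed elsewhere, which use the plain totals.

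The 10 genes, the related lists and the markers were chosen with earlier results of these data known. Named by rule were all 10, PROX1, per list the most abundant uncalled gene and up to 4 called genes of at least 1 CPM with the largest change, related pseudogenes and overlapping genes, and the 3 genes nearest to TPM3. Floors cover counting error only. A sequence comparison at the start of the tropomyosin coding forms is not reported here.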

Additional observations from a re-analysis of the deposited data

Results flagged for a closer look

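Of 22 groups of 4 libraries compared, over the 10 genes and PROX1, 3 had a library far from the other 3, where chance gives about 1 in 20. TPM2 was highest in shPROX1 replicate 4 at 299 CPM, against 283 to 285 CPM in the other 3 shPROX1 libraries. TMOD2 was lowest in shPROX1 replicate 1 at 2.09 CPM, which is 9 counts, against 3.67 to 3.74 CPM in the other 3 shPROX1 libraries. LMOD2 was highest in control replicate 4 at 0.206 CPM, which is 1 count, with the other 3 control libraries at 0. The rate of 1 in 20 does not hold for LMOD2, since 1 count beside libraries at 0 is always flagged.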

How the results depend on the processing

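Over 16 alternatives, the 7 tested genes gave 112 results, of which 111 kept direction and call and 1 gained a call. A stricter threshold of 0.01 was 1 of the 16 and read the main fit again, so it could change calls but not directions. With each library left out in turn, 0 to 1 genes were called higher, the 1 being TPM4 without control replicate 1. TPM3 stayed between -0.71 and -0.68 on the log2 scale, with an adjusted p of at most 1.07e-09, and PROX1 between -1.15 and -0.99. At an adjusted p of 0.05 the counts over all genes ran from 1822 to 2281 higher and 1661 to 2298 lower, both lowest with DESeq2. At the threshold of 0.01 the main fit gave 1507 higher and 1479 lower. The ratios of TPM3 to the other tropomyosins kept their sign with each library left out, an alternative chosen after seeing the data (-0.82 to -0.75). Same-numbered libraries did not deviate together (correlations -0.05 to 0.05) and none was most like its own number. The numbers thus gave no sign of pairing, which does not show how the libraries were prepared. With the replicate block, 0 of the 10 genes were called higher and 1 lower, with TPM3 at -0.70 ± 0.05, and 2075 genes were higher and 2112 lower in all. Depth limits TMOD1, TMOD2 and the leiomodins, which had 0 to 24 counts per library.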

Other observations

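Genes within 500 kb of TPM3 were read after its values had been seen. Of 18 tested genes there, 3 were called higher (RAB13 at 0.46, HAX1 at 0.23 and IL6R at 0.98 on the log2 scale) and 2 lower (JTB at -0.25 and UBE2Q1 at -0.70), with a median of 0.01. The share called lower was 11.1%, beside 17.9% of all tested genes. UBE2Q1, whose pattern over the libraries was nearest to that of TPM3, lies 354 kb from it. The nearest tested gene, C1orf43, was 12.1 kb away with a log2 change of 0.02 ± 0.05 and was not called.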
